A study of Mus musculus with 24 samples.

Results

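Solute carriers are the membrane proteins that move amino acids, sugars, nucleosides, metals, inorganic ions, vitamins and other small molecules across the plasma membrane and the membranes of organelles. The genes described here were taken from the deposited table of mouse macrophage RNA-seq levels by name. They are the protein-coding genes whose symbol is Slc followed by a digit, without the mitochondrial carriers of family SLC25 and without 9 carriers of glucose, lactate, arginine, cystine and iron, namely Slc2a1, Slc2a6, Slc16a1, Slc16a3, Slc7a2, Slc7a11, Slc11a1, Slc11a2 and Slc40a1. This gave 168 of the 13568 listed genes. Of these, 149 reached 1 CPM (reads per unit of scaled library size, as deposited) in at least 6 libraries and were tested, and the other 19 were too low. By family number 163 of them fell into 13 substrate families. The others were a urea carrier, Slc14a1, and 4 proteins that are named for a carrier without being one (Slc4a1ap, Slc7a6os, Slc9a3r1 and Slc9a3r2).

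The macrophages were grown for 7 days from the bone marrow of male C57Bl/6 mice in medium with 5 mmol/L glucose and 20% conditioned medium of L929 cells, which release macrophage growth factor, and were then selected by adhesion. Diabetes had been induced with streptozotocin, which destroys pancreatic beta cells, and the controls were labelled wild type. The samples of 6 diabetic and 6 control mice were each divided, and 1 portion received lipopolysaccharide (LPS, from the outer membrane of Gram-negative bacteria) at 100 ng/mL together with interferon-gamma at 10 ng/mL for 6 h. The groups, of 6 libraries each, were therefore stimulated diabetic, stimulated control, unstimulated diabetic and unstimulated control, and all of them saw the same glucose in culture. The sources used here do not give age, blood glucose or the duration of diabetes.

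A macrophage that is activated by LPS and interferon-gamma changes what it takes up and releases: it withholds metals from microbes or loads them into phagosomes, recycles nucleosides and heme from engulfed cells, and alters its supply of amino acids. Some carriers act alone, while others work as pairs. In the amino acid exchangers of family SLC7, a light chain that transports is held at the surface by the heavy chain Slc3a2 (CD98). Zinc is exported from the cytosol by carriers of family SLC30 and imported by those of family SLC39, and copper enters through Slc31a1.

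Promoter sequences are shown for 5 members on which the results turn: the most strongly induced member (Slc28a2), the 2 neighbouring copper carriers (Slc31a2 and Slc31a1), and the 2 members with the largest difference between diabetic and control cells after stimulation (Slc20a1 and Slc30a1). These rankings are by difference of log2(CPM + 1), which understates differences of low genes. Each sequence is the RefSeq window of build GRCm38.p6 from 250 bases before to 50 after the start, read 5′ to 3′. Capitals mark letters that match 1 of the searched motifs on either strand.
The Slc28a2 window is chr2:122426185-122426484, plus strand.
Slc28a2: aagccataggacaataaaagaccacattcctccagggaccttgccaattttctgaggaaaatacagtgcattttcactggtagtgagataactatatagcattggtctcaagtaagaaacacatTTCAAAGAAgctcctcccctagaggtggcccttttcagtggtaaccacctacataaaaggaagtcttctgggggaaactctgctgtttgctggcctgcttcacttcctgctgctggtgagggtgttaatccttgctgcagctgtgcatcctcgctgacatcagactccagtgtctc
The Slc31a2 window is chr4:62286179-62286478, plus strand.
Slc31a2: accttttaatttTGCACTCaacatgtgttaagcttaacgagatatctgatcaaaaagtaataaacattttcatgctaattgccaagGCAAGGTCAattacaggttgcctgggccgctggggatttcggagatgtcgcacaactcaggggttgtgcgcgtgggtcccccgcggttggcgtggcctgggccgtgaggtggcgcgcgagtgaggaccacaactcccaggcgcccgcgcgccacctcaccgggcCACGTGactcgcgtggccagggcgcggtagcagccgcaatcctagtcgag
The Slc31a1 window is chr4:62360451-62360750, plus strand.
Slc31a1: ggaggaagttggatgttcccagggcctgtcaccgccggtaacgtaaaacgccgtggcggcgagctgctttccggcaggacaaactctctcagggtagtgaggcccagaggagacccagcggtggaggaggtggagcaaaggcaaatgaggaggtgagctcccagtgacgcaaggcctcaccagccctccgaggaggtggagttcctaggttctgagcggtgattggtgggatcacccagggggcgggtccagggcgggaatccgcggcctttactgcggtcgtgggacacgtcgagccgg
The Slc20a1 window is chr2:129198523-129198822, plus strand.
Slc20a1: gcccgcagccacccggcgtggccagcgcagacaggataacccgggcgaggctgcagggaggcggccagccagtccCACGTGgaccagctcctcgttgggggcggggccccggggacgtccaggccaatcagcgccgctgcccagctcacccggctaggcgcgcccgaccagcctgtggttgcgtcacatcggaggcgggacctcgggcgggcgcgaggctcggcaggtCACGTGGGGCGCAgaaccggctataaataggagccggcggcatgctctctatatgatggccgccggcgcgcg
The Slc30a1 window is chr1:191906531-191906830, plus strand.
Slc30a1: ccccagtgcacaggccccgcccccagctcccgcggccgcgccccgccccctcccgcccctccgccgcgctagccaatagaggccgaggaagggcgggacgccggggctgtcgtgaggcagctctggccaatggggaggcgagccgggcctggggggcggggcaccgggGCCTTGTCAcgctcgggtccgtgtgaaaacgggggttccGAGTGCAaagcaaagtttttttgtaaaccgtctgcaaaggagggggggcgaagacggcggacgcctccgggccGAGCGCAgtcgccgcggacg

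The motifs searched were the interferon-gamma activated site GAS (TTCNNNGAA), the interferon-stimulated response element ISRE (GAAA, any 2 bases, GAAA), the NF-kB site (GGGA, any base, TTTCC), the antioxidant response element ARE (TGACNNNGC), the metal response element MRE (TGCACNC or TGCGCNC) and the E-box (CACGTG). No matches overlapped in the windows shown. The Slc28a2 window held a GAS match at -126 from the start, a motif found in 8.30% of 32851 mouse promoter windows of this length. The Slc30a1 window held an ARE match at -82 and MRE matches at -43 and 30. The Slc20a1 window held E-box matches at -175 and -22 and an MRE match at -16. The Slc31a2 window, whose RefSeq start lies 23867 bases inside the gene as the table draws it, held an MRE match at -238, an ARE match at -164 and an E-box at the start. None of the motifs was found in the Slc31a1 window. Over all promoters the ARE letters were found in 12.4%, the E-box in 7.15%, and the 2 forms of the MRE in 12.6% and 15.4%. Among 108 member windows, ARE letters were found in 23 (21.3%), the E-box in 12 (11.1%), GAS in 6 (5.56%) and ISRE in 0, against 3.44% of all promoters for ISRE. Matches are descriptions of letters, and no binding was measured.

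The libraries held 16754771 to 34130060 reads in the listed genes, so that 3 reads corresponded to 0.0835 to 0.175 CPM. Over genes, libraries of the same group correlated with r between 0.994 and 0.998. All 10 macrophage markers examined, among them Csf1r, Adgre1 and Cd68, were in the table at summed levels of 14667 to 20296.5 CPM per library. The deposited scaling set stimulated and unstimulated libraries far apart, with factors of 0.726 to 0.833 in stimulated and 1.23 to 1.29 in unstimulated libraries. Scaling by total reads therefore moved the median stimulation difference of all genes by -0.57 (diabetic) and -0.62 (control) on the log2 scale, a median-of-ratios scaling by 0.26 (diabetic) and 0.30 (control), and quantile normalization by 0.15 (diabetic) and 0.19 (control). Directions of change below were therefore checked under these 3 scalings. The deposited factors also separated the phenotypes after the stimulus, where the highest control factor was 0.785 and the lowest diabetic one 0.807. Without the stimulus the factors of the phenotypes overlapped. The value of 3 reads covers counting error only.

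Per kb of the longest transcript, and averaged over all libraries, the highest members were the taurine carrier Slc6a6 at 322 CPM per kb, the lysosomal peptide and histidine carrier Slc15a3 at 295, the sodium-coupled nucleoside carrier Slc28a2 at 168, the vesicular copper carrier Slc31a2 at 150.1 and the heavy chain Slc3a2 at 123. Slc6a6 (chr6:91684053-91759066, plus strand) was abundant in every library. Its levels were 1986, 2149.8 and 2183 CPM (lowest, median and highest of 6) in stimulated diabetic, 1891, 2017 and 2109 CPM in stimulated control, 1761, 1987 and 2065 CPM in unstimulated diabetic and 1826, 1859 and 1991 CPM in unstimulated control libraries. These 4 ranges overlapped. The stimulation difference was 0.13 ± 0.04 (SE) in diabetic cells, but it was -0.51 when libraries were scaled by total reads and -1.02 after quantile normalization, so no direction is given for it. In control cells it was 0.08 ± 0.04 and did not pass (adjusted p = 0.057). The other 4 are taken up with the responses to the stimulus.

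After the stimulus 134 of 149 tested solute carriers passed the test in diabetic and 138 in control cells, a share close to that of all tested genes. In diabetic cells 39 members rose and 95 fell, against 35.2% and 55.1% (90.3% in either direction) of the 11710 genes tested. In control cells 42 rose and 96 fell, against 34.9% and 56.4%, or 91.3% in either direction (limma on log2(CPM + 1), Benjamini-Hochberg adjusted p under 0.05). The median difference over members was -0.47 in diabetic and -0.63 in control cells, beside -0.25 in diabetic and -0.30 in control cells over all tested genes. In both phenotypes 37 members rose and 91 fell, and no member moved in opposite directions. The same was not counted over all tested genes. A difference of at least 1 on the log2 scale was reached by 22 that rose and 50 that fell in diabetic cells, and by 21 and 55 in control cells. The stimulated and unstimulated libraries did not overlap for 121 members in diabetic cells (81% of all genes) and for 124 in control cells (81.2% of all genes). In these bulk samples fewer cells of a type and less RNA per cell cannot be told apart. The split moved with scaling. Under total reads 23 members rose and 121 fell in diabetic cells, and 22 and 120 in control cells. Over all tested genes 2371 rose and 8752 fell in diabetic cells under that scaling, and 2300 and 8856 in control cells. Under median-of-ratios scaling 55 members rose and 81 fell in diabetic cells, and 54 and 85 in control cells. Over all tested genes these counts were 5244 and 5244 in diabetic cells, and 5318 and 5276 in control cells. Across scalings 97 members kept their call under all 3 scalings in each phenotype, 23 higher and 74 lower in diabetic cells, and 22 and 75 in control cells. The share of all tested genes that kept theirs was not counted.

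**Figure D1:**
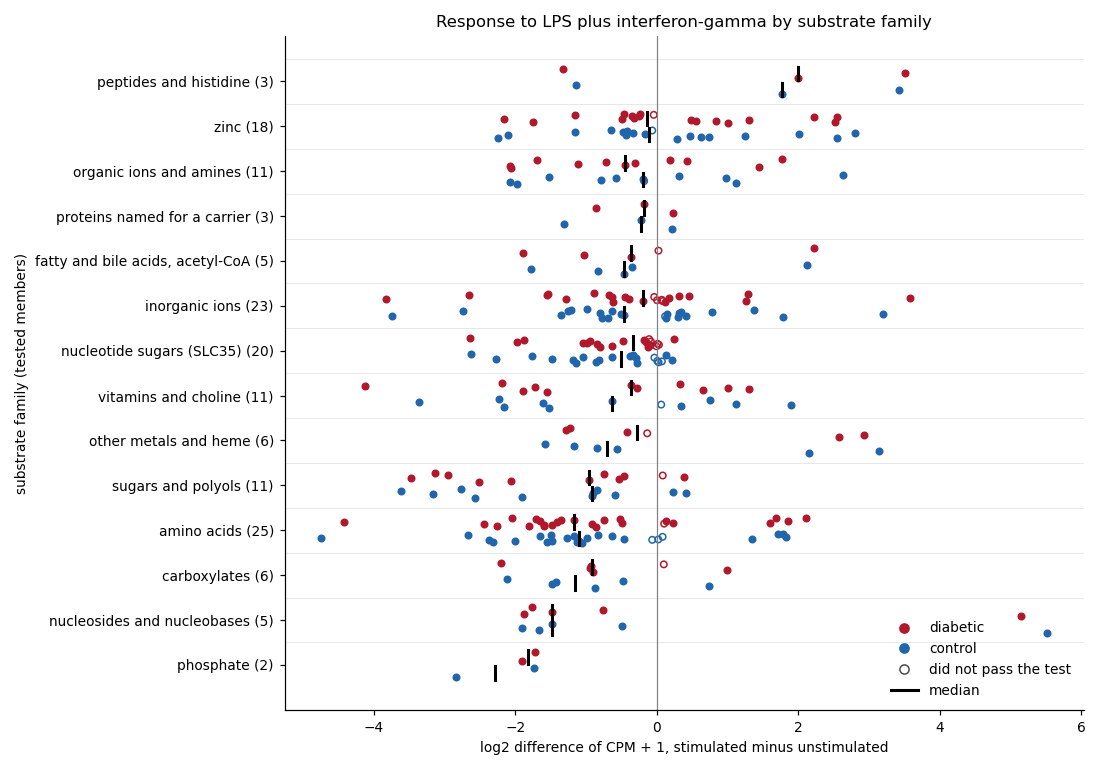
Stimulated minus unstimulated log2 difference of CPM + 1 (horizontal axis) of the 149 tested members, grouped by substrate family (rows, with the number tested), with diabetic cells drawn above control cells in each row. Filled points passed the test, open points did not, and black bars are medians, which lie lowest for phosphate and nucleosides and highest for the 3 peptide and histidine carriers.

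The nucleoside carrier Slc28a2 (chr2:122426477-122461137, plus strand), which takes up purine nucleosides with sodium, rose most on the scale of log2(CPM + 1). It was at 839.5, 935 and 1248 CPM in stimulated and 22.8, 26.5 and 31.6 CPM in unstimulated diabetic libraries. Stimulated control libraries had 1304, 1628 and 1845 CPM and unstimulated ones 27.9, 33.3 and 43.3 CPM. Every stimulated library thus lay far above every unstimulated one. The difference was 5.16 ± 0.10 in diabetic cells (adjusted p = 1.2e-23, a 37.1-fold ratio of means) and 5.52 ± 0.10 in control cells (adjusted p = 2.8e-24, 47.2-fold). Members with few reads could exceed these ratios. Slc44a3 rose at least 62.0-fold in diabetic and 69.9-fold in control cells over a floor of 3 reads. A gene listed as Gm14085 is annotated by RefSeq as the copy Slc28a2b, and it stayed at 0.123 to 0.730 CPM in all libraries, but the sources used here do not say how reads of the copies were divided. The other 4 tested members of this family fell in both phenotypes and under all 3 scalings, among them Slc29a3, which exports nucleosides from lysosomes, by 0.76 in diabetic and 0.49 in control cells.

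The lysosomal peptide and histidine carrier Slc15a3 (chr19:10839727-10859362, plus strand) was raised at a high level. It had 2274, 2481 and 2657 CPM in stimulated and 178, 225 and 245 CPM in unstimulated diabetic libraries. In control cells it had 2673, 2767 and 3034 CPM with the stimulus and 228, 258 and 305 CPM without. The groups did not overlap, and the differences were 3.51 ± 0.07 in diabetic (adjusted p = 2.6e-26) and 3.42 ± 0.07 in control cells (adjusted p = 4.4e-26). Its exons share 28.1% of their bases with Tmem132a on the opposite strand, which stood at 4.17 to 7.79 CPM in stimulated libraries, and the sources used here do not say whether counting used strand. Slc15a4, the related endosomal carrier that signalling from nucleic acid sensing Toll-like receptors depends on, fell instead. It averaged 28.9 ± 1.92 CPM in stimulated and 74.0 ± 3.08 CPM in unstimulated diabetic cells (SD, n = 6 each), and 33.8 ± 1.15 CPM in stimulated and 76.1 ± 3.92 CPM in unstimulated control cells. The 2 related carriers therefore moved in opposite directions.

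The third member of that family, Slc15a2, which imports peptides at the cell surface and was picked after its values were seen, differed between mice more than any other tested member. Its SD between mice on the log2 scale was 1.74 in stimulated and 0.86 in unstimulated cells, against at most 0.44 in stimulated and 0.34 in unstimulated cells for any other tested member. In diabetic mouse 6 it had 1 read (0.0433 CPM) in the stimulated and 2 reads (0.0557 CPM) in the unstimulated library. In control mouse 1 it had 2 reads (0.0939 CPM) in the stimulated and 1 read (0.0301 CPM) in the unstimulated library. Control mouse 3 stood between, at 4.16 CPM stimulated and 0.412 CPM unstimulated. In the other 9 mice it had 9.65 to 34.2 CPM in stimulated and 1.78 to 4.56 CPM in unstimulated libraries, so both portions of a mouse were low together. Its rise was 1.99 ± 0.79 in diabetic (adjusted p = 0.022) and 1.78 ± 0.79 in control cells (adjusted p = 0.038), and in that fit, which does not pair the portions of a mouse, both calls were lost without single libraries (adjusted p up to 0.056 and 0.104). With the mouse as a replicate block the adjusted p was 5.7e-04 in diabetic and 0.0013 in control cells.

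Both copper carriers rose. Slc31a2 (chr4:62262562-62298411, plus strand), which acts on copper in intracellular vesicles, and Slc31a1 (chr4:62360727-62391769, plus strand), the copper importer of the plasma membrane, are neighbours on chromosome 4 with 62315 bases between them. Slc31a2 had 372, 411 and 448 CPM in stimulated and 47.1, 53.5 and 57.4 CPM in unstimulated diabetic libraries, and 521, 575 and 606 CPM in stimulated and 58.6, 63.0 and 69.4 CPM in unstimulated control libraries. Slc31a1 had 439.6, 458 and 489 CPM in stimulated and 70.3, 77.4 and 81.3 CPM in unstimulated diabetic libraries, and 321, 346 and 355 CPM in stimulated and 72.1, 76.2 and 78.3 CPM in unstimulated control libraries. Neither gene had a stimulated library within the unstimulated range. The differences for Slc31a2 were 2.93 ± 0.05 in diabetic and 3.14 ± 0.05 in control cells (adjusted p = 2.5e-28 and 4.6e-29). Those for Slc31a1 were 2.58 ± 0.04 in diabetic and 2.15 ± 0.04 in control cells (adjusted p = 2.8e-30 and 1.9e-28). The other carriers grouped with them, for magnesium and heme, mostly fell. Of these 4, 3 fell in diabetic and 4 in control cells, beside 55.1% (diabetic) and 56.4% (control) of all tested genes. Slc48a1, which moves heme out of the phagolysosome, fell by 1.23 in diabetic and 1.58 in control cells.

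Zinc carriers divided nearly evenly, with 8 members higher and 9 lower of 18 tested in each phenotype. This split depended on scaling, with 6 higher and 11 lower under total reads and 11 and 5 after quantile normalization in diabetic cells. All tested genes rose in 35.2% and fell in 55.1% of cases in diabetic cells, and in 34.9% and 56.4% in control cells. The importer Slc39a14, which carries zinc and iron into cells, rose under all 3 scalings. It stood at 205, 225 and 230.2 CPM in stimulated and 34.4, 35.9 and 40.4 CPM in unstimulated diabetic libraries, and at 173, 192 and 205 CPM in stimulated and 41.7, 46.9 and 51.5 CPM in unstimulated control libraries. The stimulated ranges lay well above, and the differences were 2.55 ± 0.05 in diabetic (adjusted p = 9.0e-27) and 2.01 ± 0.05 in control cells (adjusted p = 2.6e-24). The zinc exporter Slc30a1 rose by 1.003 ± 0.07 in diabetic cells. Its rise in control cells was 0.29 ± 0.07, and under total reads that value was -0.40. Slc39a2, another zinc importer, was low but rose in both phenotypes, with 5.65 ± 0.737 CPM in stimulated and 0.423 ± 0.119 CPM in unstimulated diabetic cells, and 8.28 ± 1.12 CPM in stimulated and 0.319 ± 0.126 CPM in unstimulated control cells. Slc30a4, an exporter of intracellular compartments that was chosen after its values were seen, rose by 2.53 in diabetic and 2.55 in control cells.

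Amino acid carriers mostly fell, where 55.1% of all tested genes fell in diabetic and 56.4% in control cells. Of 25 tested, 6 rose and 18 fell in diabetic cells, and 4 rose and 18 fell in control cells, with medians of -1.17 in diabetic and -1.10 in control cells that stayed negative under all 3 scalings. On the scale of log2(CPM + 1), the largest fall of any member was that of Slc43a2 (chr11:75531694-75577575, plus strand), which lets branched-chain and other neutral amino acids out of cells. It had 24.9, 27.1 and 30.9 CPM in stimulated and 575, 601 and 687 CPM in unstimulated diabetic libraries. Control libraries had 19.3, 21.6 and 24.3 CPM with the stimulus and 582, 599 and 615 CPM without. The stimulated libraries stood far below the unstimulated ones in both phenotypes, with differences of -4.42 ± 0.05 in diabetic (adjusted p = 9.1e-33) and -4.75 ± 0.05 in control cells (adjusted p = 1.8e-33). An antisense gene that shares 9.18% of its exon bases, Gm45606, was at 0.1001 to 0.452 CPM in stimulated and 8.79 to 11.9 CPM in unstimulated libraries. The glutamine carrier Slc1a5 averaged 11.2 ± 0.893 CPM in stimulated and 57.5 ± 3.53 CPM in unstimulated diabetic cells, and 10.1 ± 1.39 CPM in stimulated and 54.2 ± 5.39 CPM in unstimulated control cells. Slc38a2, a carrier of small neutral amino acids, fell by 2.45 in diabetic and 2.37 in control cells. The arginine and lysine importer Slc7a1 fell by 1.17 in diabetic and 1.64 in control cells.

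The heavy chain Slc3a2 and its light chains did not move as one. Slc3a2 had 511, 518 and 542 CPM in stimulated and 163, 167 and 196 CPM in unstimulated diabetic libraries, and 449, 501 and 527 CPM in stimulated and 187, 192 and 208 CPM in unstimulated control libraries. These ranges did not overlap, and the rises were 1.60 ± 0.04 in diabetic (adjusted p = 4.3e-24) and 1.35 ± 0.04 in control cells (adjusted p = 3.0e-22). Among its light chains, Slc7a7, which exchanges cationic for neutral amino acids, rose by 1.69 in diabetic and 1.79 in control cells, and Slc7a8, a neutral amino acid exchanger picked after its values were seen, rose by 2.11 in diabetic and 1.72 in control cells. Slc7a6, a near relative of Slc7a7, fell by 2.05 in diabetic and 2.67 in control cells. Slc7a5, the leucine exchanger of proliferating cells, was at 8.03 ± 1.26 CPM in stimulated and 11.9 ± 1.38 CPM in unstimulated diabetic cells, and at 6.45 ± 1.09 CPM in stimulated and 12.1 ± 0.778 CPM in unstimulated control cells. Its fall did not pass under quantile normalization, which gave 0.06 (adjusted p = 0.53) in diabetic and -0.15 (adjusted p = 0.11) in control cells.

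Sugar and polyol carriers fell in 9 of 11 cases in each phenotype, beside 55.1% (diabetic) and 56.4% (control) of all tested genes. The family medians of -0.96 in diabetic and -0.91 in control cells stayed negative under all 3 scalings. Slc37a2 (chr9:37227585-37255738, minus strand), a sugar phosphate exchanger of the endoplasmic reticulum that is abundant in macrophages, had 64.6, 68.4 and 76.2 CPM in stimulated and 703, 757 and 929.8 CPM in unstimulated diabetic libraries. In control libraries it had 100.1, 106 and 114 CPM with the stimulus and 866, 950.3 and 1075 CPM without. The groups were far apart, with differences of -3.47 ± 0.06 in diabetic (adjusted p = 4.1e-29) and -3.16 ± 0.06 in control cells (adjusted p = 3.7e-28). The glucose carrier Slc2a3 averaged 1.495 ± 0.354 CPM in stimulated and 13.2 ± 0.991 CPM in unstimulated diabetic cells, and 1.42 ± 0.329 CPM in stimulated and 13.3 ± 0.904 CPM in unstimulated control cells. Slc45a4, of a family of sugar carriers, fell by 2.96 in diabetic and 3.61 in control cells. The inositol carrier Slc5a3 fell by 3.14 in diabetic and 2.77 in control cells.

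Both phosphate importers fell, Slc20a1 by 1.91 in diabetic and 2.84 in control cells, and Slc20a2 by 1.72 in diabetic and 1.74 in control cells. Carboxylate carriers fell in 4 of 6 cases in diabetic and 5 of 6 in control cells, beside 55.1% (diabetic) and 56.4% (control) of all tested genes. In this family Slc16a10, which carries aromatic amino acids and thyroid hormone, fell by 0.94 in diabetic and 1.49 in control cells. The fatty acid carrier Slc27a1 fell by 1.90 in diabetic and 1.77 in control cells, while the acetyl-CoA carrier of the endoplasmic reticulum, Slc33a1, rose by 2.22 in diabetic and 2.12 in control cells and was noted after its values were seen. Among the 11 vitamin and choline carriers 4 rose in each phenotype, and 7 fell in diabetic and 6 in control cells. The lysosomal carrier Slc46a3 had the largest fall of these, with 0.754, 1.06 and 1.41 CPM in stimulated and 29.8, 35.98 and 38.998 CPM in unstimulated diabetic libraries, and 1.21, 1.61 and 1.95 CPM in stimulated and 20.8, 25.9 and 29.2 CPM in unstimulated control libraries. As a ratio, the fall of Slc46a3 in diabetic cells was larger than that of Slc43a2. The folate importer Slc46a1 fell by 1.73 in diabetic and 1.60 in control cells.

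Inorganic ion carriers gave no single direction, with 7 higher and 12 lower of 23 in diabetic and 10 and 12 in control cells. Over all tested genes 55.1% fell in diabetic and 56.4% in control cells. The median of the ion carriers in diabetic cells turned from -0.19 to 0.08 under median-of-ratios scaling. Slc4a11, a membrane protein of the bicarbonate carrier family, was near the limit of detection without the stimulus. It had 12.03, 13.02 and 22.4 CPM in stimulated and 0.223, 0.329 and 0.638 CPM in unstimulated diabetic libraries, and 7.13, 12.1 and 19.3 CPM in stimulated and 0.189, 0.429 and 0.643 CPM in unstimulated control libraries. The stimulated libraries spread widely, but none came near the unstimulated ones, and the differences were 3.58 ± 0.18 in diabetic (adjusted p = 1.1e-15) and 3.20 ± 0.18 in control cells (adjusted p = 1.1e-14). Slc12a9, a relative of the cation-chloride cotransporters, rose by 1.26 in diabetic and 1.79 in control cells. The sulfate carrier Slc26a11 fell to 2.03 ± 0.239 CPM in stimulated diabetic cells, against 42.1 ± 4.48 CPM in unstimulated diabetic cells, and to 2.20 ± 0.484 CPM in stimulated control cells, against 41.6 ± 2.19 CPM in unstimulated control cells. Slc9a9, a sodium-proton exchanger of endosomes, fell by 1.54 in diabetic and 1.21 in control cells.

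Nucleotide sugar carriers, which supply the Golgi, were grouped by family number with their SLC35 relatives, not all of which have that role. Of 20 tested, 1 rose and 14 fell in diabetic and 2 rose and 14 fell in control cells, with medians of -0.33 in diabetic and -0.51 in control cells. All tested genes fell in 55.1% (diabetic) and 56.4% (control) of cases, with medians of -0.25 in diabetic and -0.30 in control cells. Under median-of-ratios scaling 8 rose and 10 fell in diabetic and 6 rose and 10 fell in control cells, and under total reads all 20 fell in both phenotypes. Slc35g1, named after its values were seen, fell by 2.64 in diabetic and 2.62 in control cells. Organic ion and amine carriers rose in 4 and fell in 7 of 11 cases in diabetic cells, and their median changed sign with scaling. Their largest rise in control cells was that of the serotonin carrier Slc6a4, which had 2.45, 3.31 and 3.72 CPM in stimulated and 0.0951, 0.162 and 0.370 CPM in unstimulated diabetic libraries, and 4.49, 5.35 and 8.12 CPM in stimulated and 0, 0.0929 and 0.161 CPM in unstimulated control libraries. Its unstimulated levels lay near the value of 3 reads. A further 2 members, picked for this after their values were seen, had no read in any of the 12 unstimulated libraries. Slc44a3, of the choline carrier family, had 136 reads in stimulated diabetic and 152 in stimulated control libraries, which was at least 62.0-fold (diabetic) and 69.9-fold (control) higher than a floor of 3 reads over the unstimulated group. Slc6a20a, an imino acid carrier below the minimum level for the test, had 72 reads in stimulated diabetic and 26 in stimulated control libraries.

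**Figure D2:**
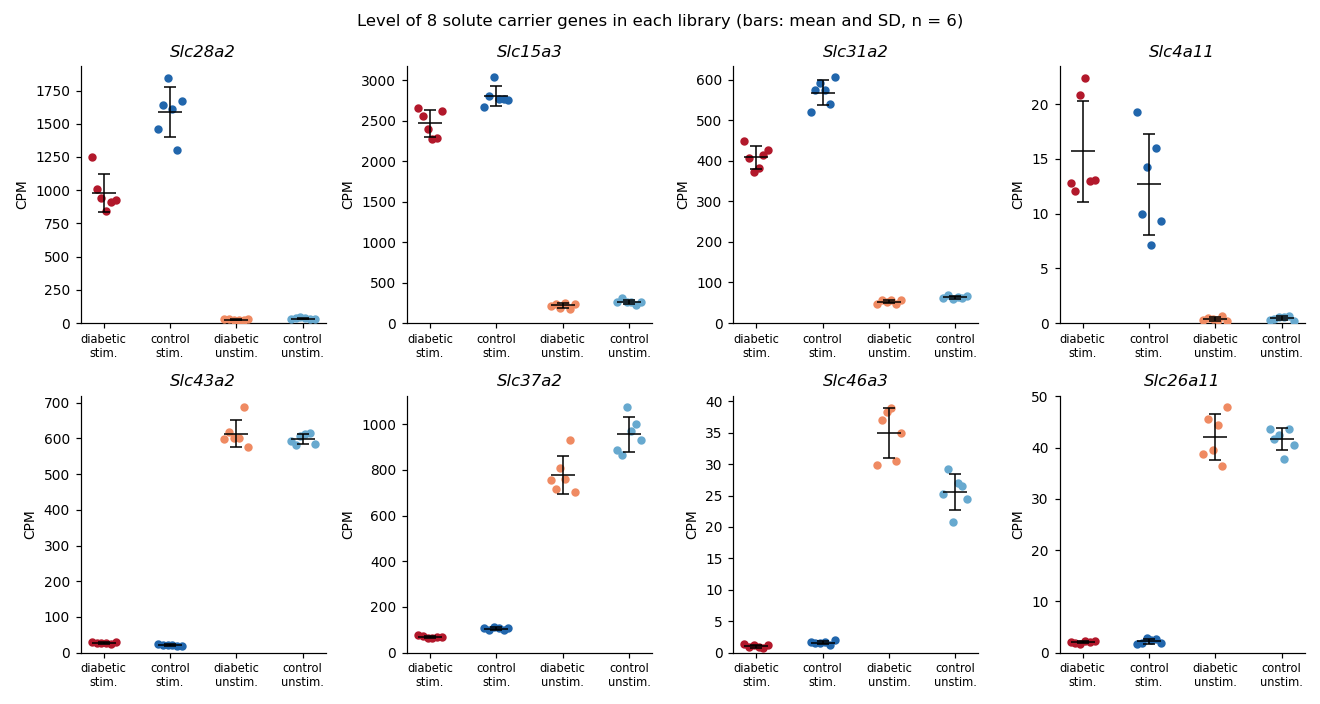
CPM (vertical axis, from 0, on a scale of its own in each panel) of 8 members in each of the 24 libraries, as points, with bars for the mean and SD of 6 libraries. Slc28a2, Slc15a3, Slc31a2 and Slc4a11 stand high in the stimulated groups, and Slc43a2, Slc37a2, Slc46a3 and Slc26a11 in the unstimulated groups, with no overlap between stimulated and unstimulated libraries of a phenotype.

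Diabetic and control macrophages differed less. Without the stimulus 21 members were higher and 20 lower in diabetic cells, against 9.16% and 10.2% of all tested genes (19.3% in either direction), and 108 did not pass. Under scaling by total reads the counts were 26 and 14, beside 1416 and 939 over all tested genes. The median difference was 0.01 over members and 0.00 over all genes. The libraries of the phenotypes did not overlap for 21 members (12.6% of all genes). The table orders its libraries as 2 blocks of columns, 12 in each, with 3 mice of each phenotype per block. Fitted alone, the first block gave 14 higher and 15 lower members and the second 9 and 4. Over all tested genes the first block gave 675 higher and 831 lower and the second 399 and 462. All 41 differences kept their direction in both blocks, 8 passed the test in each and 10 passed in neither. The 41 were called in the fit of both blocks together, so a shared direction was likely in advance and is no independent repeat.

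The betaine and GABA carrier Slc6a12 differed most. It had 4.50, 6.19 and 6.87 CPM in diabetic and 0.918, 1.95 and 3.31 CPM in control libraries, with no overlap, a difference of 1.15 ± 0.13 (adjusted p = 4.7e-07). Slc36a2, a carrier of small amino acids and protons, had 2.96, 3.42 and 7.02 CPM in diabetic and 1.13, 1.65 and 2.24 CPM in control libraries. The phenotypes did not overlap, although 1 diabetic library stood well above the other 5, and the difference was 0.90 ± 0.13 (adjusted p = 5.2e-06). The carnitine and ergothioneine carrier Slc22a4 had 7.77, 9.53 and 12.3 CPM in diabetic and 5.26, 6.04 and 6.49 CPM in control libraries, also without overlap, and differed by 0.62 ± 0.09 (adjusted p = 4.9e-06). The inositol carrier Slc5a3 averaged 18.8 ± 3.98 CPM in diabetic and 12.2 ± 2.27 CPM in control cells, and its ranges overlapped. The zinc importer Slc39a4 was higher by 0.44 ± 0.10 and Slc46a3 by 0.44 ± 0.09. Within single blocks the calls of Slc5a3 and Slc39a4 were lost in the second (adjusted p = 0.21 and 0.15) and that of Slc46a3 in the first (adjusted p = 0.053). Slc48a1, the heme carrier, stood at 343, 379 and 452 CPM in diabetic and 283, 307 and 338 CPM in control libraries and was higher by 0.34 ± 0.07 (adjusted p = 8.5e-04, and 0.076 in the first block).

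Among members that were lower in unstimulated diabetic cells, Slc9a9 had 37.9, 50.5 and 54.2 CPM in diabetic and 64.0, 65.2 and 69.8 CPM in control libraries. These ranges did not meet, and the difference was -0.45 ± 0.11 (adjusted p = 0.0051, and 0.06 in the second block). The light chain Slc7a7 was lower by 0.36, the potassium-chloride cotransporter Slc12a7 by 0.35, Slc39a14 by 0.34 and the sodium-calcium exchanger Slc24a3 by 0.30, each of them past the test in both blocks. Slc28a2 was lower by 0.34 (adjusted p = 0.023). That call passed in neither block alone and was lost without diabetic replicate 3 (adjusted p = 0.058), diabetic replicate 5 (0.054) or control replicate 3 (0.066). By family, 7 of 25 amino acid carriers were higher and 3 lower, and 3 of 11 vitamin and choline carriers were higher and 0 lower, beside 9.16% higher and 10.2% lower among all tested genes. Members that the stimulus raised were among those lower here, with Slc31a2 at -0.27, Slc15a3 at -0.27 and Slc3a2 at -0.18, none of which passed in the second block alone.

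Cell type markers differed with the phenotype too. Of the 10 macrophage markers, 6 were lower and 1 higher in unstimulated diabetic than in unstimulated control cells, and 5 were lower and 1 higher in stimulated ones. C1qa averaged 321 CPM in stimulated diabetic and 706 CPM in stimulated control cells, and 289.7 CPM in unstimulated diabetic and 637 CPM in unstimulated control cells. Summed over the 2 listed of 6 B lineage markers (Ighm and Cd79b), levels were 24.3 to 58.3 CPM in unstimulated diabetic and 7.57 to 20.7 CPM in unstimulated control libraries. Nearly all of that sum was Ighm, which averaged 36.7 CPM in diabetic and 11.6 CPM in control cells and was higher, while Cd79b averaged 0.962 CPM in diabetic and 1.42 CPM in control cells and was lower. The 2 listed of 7 neutrophil markers (S100a8 and Mmp8) summed to 34.1 to 43.7 CPM in unstimulated diabetic and 14.3 to 23.3 CPM in unstimulated control libraries. The 4 listed of 5 osteoclast markers summed to 58.1 to 94.5 CPM in unstimulated diabetic and 24.3 to 54.7 CPM in unstimulated control libraries, and to 52.3 to 87.3 CPM in stimulated diabetic and 26.2 to 49.8 CPM in stimulated control libraries. Of these 4, 1 was called higher in unstimulated and 3 in stimulated diabetic cells, and 0 lower. Dcstamp made up most of the unstimulated sum, at 50.7 CPM in diabetic and 33.3 CPM in control cells on average. Means went the other way for Acp5 in unstimulated cells (4.54 CPM diabetic, 5.12 CPM control) and Ocstamp in stimulated cells (4.07 CPM diabetic, 4.39 CPM control). In stimulated cells the B lineage sum was 2.95 to 5.26 CPM in diabetic and 1.29 to 2.30 CPM in control libraries, and the neutrophil sum 38.9 to 50.9 CPM in diabetic and 28.8 to 34.9 CPM in control libraries. The 2 listed of 6 T and NK cell markers (Lck and Klrb1c) summed to 31.1 to 46.1 CPM in stimulated diabetic and 36.8 to 60.99 CPM in stimulated control libraries, and to 0.974 to 1.52 CPM in unstimulated diabetic and 0.538 to 0.92 CPM in unstimulated control libraries. The stimulated sum was nearly all Lck, and the NK cell marker Klrb1c averaged 0.14 CPM in stimulated diabetic and 0.0539 CPM in stimulated control cells, and 0.828 CPM in unstimulated diabetic and 0.373 CPM in unstimulated control cells. The 2 listed of 4 progenitor markers (Cd34 and Kit) summed to 4.11 to 5.37 CPM in unstimulated diabetic and 1.90 to 3.70 CPM in unstimulated control libraries, and to 1.22 to 2.81 CPM in stimulated diabetic and 0.525 to 1.64 CPM in stimulated control libraries. Of 4 dendritic cell markers only Xcr1 was listed, at 3.23 to 10.1 CPM in stimulated diabetic and 1.82 to 4.79 CPM in stimulated control libraries, and none of 5 erythroid markers was. Defining markers such as Cd79a, Ms4a1, Cd3e, S100a9, Ly6g and Mpo were not listed. The part of these markers' cells in the differences between phenotypes was not tested.

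After the stimulus diabetic and control cells differed in more members. In stimulated diabetic cells 52 were higher and 34 lower, against 29.8% and 21.9% of all tested genes (51.7% in either direction), and the median difference was 0.05 over members and 0.03 over all genes. Libraries did not overlap for 47 members (23.4% of all genes). The split moved with scaling, to 70 higher and 21 lower under total reads, beside 5213 and 1528 of all tested genes. It was 43 and 38 after quantile normalization, beside 2816 and 2482 of all tested genes. Under median-of-ratios scaling it was 38 and 39, where 2717 of all tested genes were higher and 3425 lower. The number of higher members was 34 in the second block alone, beside 2474 of all tested genes. Under all 3 scalings 53 members kept their call, 32 higher and 21 lower, and the share of all tested genes that did so was not counted. All 86 differences had the same direction in both blocks, 47 passed in each and 12 passed in neither. These 86 too were called in the fit of both blocks together, so their shared direction is no independent repeat. No difference reached 1 on the scale of log2(CPM + 1), which understates differences of low genes.

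On the scale of log2(CPM + 1), the phosphate importer Slc20a1 (chr2:129198764-129211616, plus strand) differed most. It had 19.5, 24.3 and 27.7 CPM in stimulated diabetic and 9.85, 12.3 and 14.2 CPM in stimulated control libraries. Every diabetic library was above every control library, with a difference of 0.92 ± 0.08 (adjusted p = 9.5e-10, a 1.96-fold ratio of means). The zinc exporter Slc30a1 (chr1:191906767-191913247, plus strand) had 52.4, 67.3 and 70.2 CPM in stimulated diabetic and 31.6, 35.02 and 38.1 CPM in stimulated control libraries. It too showed no overlap, and it differed by 0.87 ± 0.07 (adjusted p = 2.9e-10, 1.86-fold). An antisense gene sharing 8.92% of the exon bases of Slc30a1 had at most 0.633 CPM in any library, and 8.10% of those of Slc20a1 are shared with an opposite-strand transcript that is not analysed here.

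The heme carrier Slc48a1 had 164, 167 and 173 CPM in stimulated diabetic and 83.3, 108 and 122 CPM in stimulated control libraries, without overlap, and was higher by 0.69 ± 0.07 (adjusted p = 2.0e-08). Slc36a4, an amino acid carrier, averaged 26.1 ± 2.13 CPM in stimulated diabetic and 15.99 ± 1.63 CPM in stimulated control cells. By ratio of levels the low Slc6a12 differed more than Slc20a1. Slc6a12 remained higher, with 1.44, 1.53 and 1.84 CPM in stimulated diabetic and 0.400, 0.556 and 0.751 CPM in stimulated control libraries, a difference of 0.72 ± 0.13 (adjusted p = 6.6e-05, and 0.075 in the second block alone). Carriers that the stimulus lowered thus stood less low in diabetic cells in several cases, among them Slc43a2 at 0.36, Slc45a4 at 0.58, Slc7a6 at 0.56, Slc7a1 at 0.45 and Slc16a10 at 0.37, all past the test (Slc7a1 not in the second block alone, adjusted p = 0.092).

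In the other direction Slc9a9 differed most on the scale of log2(CPM + 1). It had 13.3, 15.7 and 20.2 CPM in diabetic and 22.2, 27.01 and 36.3 CPM in control libraries, a difference of -0.77 ± 0.11 (adjusted p = 4.9e-06). The serotonin carrier Slc6a4 was lower by 0.72. Slc28a2 was lower by 0.70 (adjusted p = 6.4e-06), and its 979 CPM in diabetic cells were 0.616 times the mean of control cells. Slc12a9 had 87.4, 96.9 and 112 CPM in diabetic and 138, 146 and 182 CPM in control libraries, without overlap. It was lower by 0.61, Slc37a2 by 0.61 and Slc12a7 by 0.58. Slc15a3 was lower by 0.19 (adjusted p = 0.031), but this became 0.02 after quantile normalization and did not pass without diabetic replicates 3, 4 or 5 or control replicate 3 (adjusted p = 0.055 to 0.076). Slc46a1 was lower by 0.32 (adjusted p = 0.032), and did not pass without diabetic replicate 4 or control replicates 3, 4 or 6 (adjusted p = 0.06 to 0.11).

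The copper neighbours, both induced, went opposite ways with diabetes. Slc31a1 was higher in stimulated diabetic cells by 0.44 ± 0.04 (adjusted p = 1.1e-09) and Slc31a2 differed by -0.48 ± 0.05 (adjusted p = 4.1e-08), and for neither gene did the phenotypes overlap. Within the metals and heme group 4 members were higher and 2 lower, and the 4 included the magnesium carriers Slc41a1 at 0.41 and Slc41a2 at 0.57, named after their values were seen. Amino acid carriers counted 10 higher and 1 lower of 25, the lower one being Slc7a7 at -0.46. Carboxylate carriers counted 3 higher and 0 lower of 6, and the SLC35 group 9 and 1 of 20. Vitamin and choline carriers counted 3 and 5 of 11. All tested genes were higher in 29.8% and lower in 21.9% of cases. The family counts moved with scaling, for amino acid carriers to 16 and 1 under total reads and 7 and 1 under median-of-ratios scaling.

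**Figure D3:**
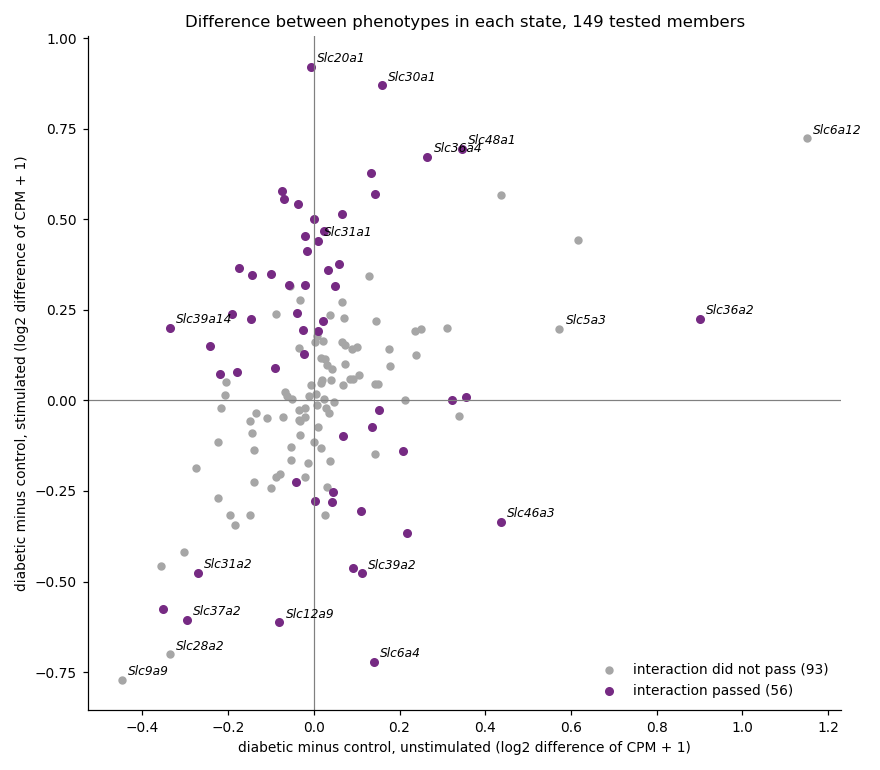
Diabetic minus control log2 difference of CPM + 1 without the stimulus (horizontal axis) and with it (vertical axis) for the 149 tested members. Purple points are the 56 members whose interaction passed the test, and Slc20a1 and Slc30a1 stand highest, at 0.92 and 0.87 on the vertical axis.

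In diabetic cells 9 members were higher in both states and 12 lower in both, and the share of all tested genes that did so was not counted. Another 3, Slc46a3, Slc44a1 and Slc44a2, were higher without and lower with the stimulus, and 2, Slc39a14 and Slc16a10, were lower without and higher with it. The choline carrier Slc44a1 averaged 304 ± 16.3 CPM in stimulated diabetic and 392 ± 26.4 CPM in stimulated control cells, and 122 ± 8.14 CPM in unstimulated diabetic and 105 ± 5.89 CPM in unstimulated control cells. It rose with the stimulus in both phenotypes. The difference of Slc44a2 in stimulated cells did not pass under scaling by total reads or quantile normalization. Slc44a1 and Slc44a2 were named after their values were seen.

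**Figure D4:**
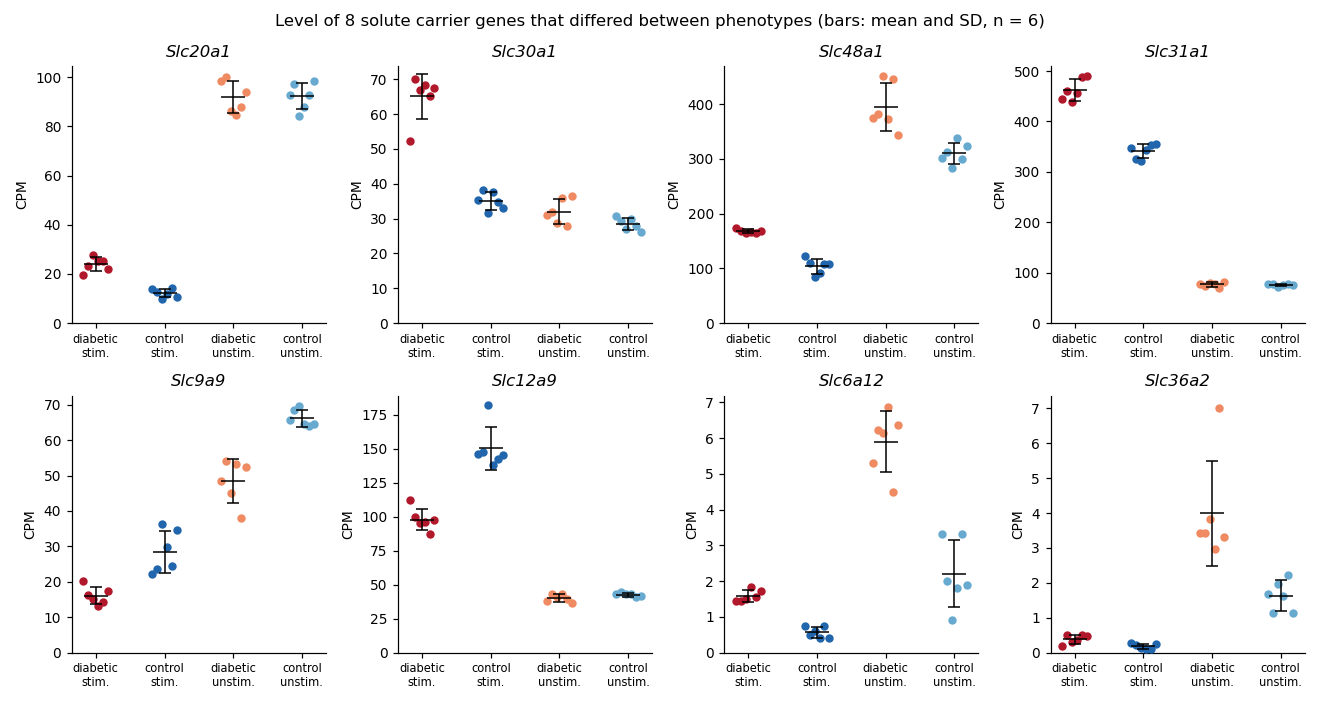
CPM (vertical axis, from 0, on a scale of its own in each panel) of 8 members that differed between phenotypes, in each library, with the mean and SD of 6 libraries. Slc20a1, Slc30a1, Slc48a1 and Slc31a1 are higher in stimulated diabetic than in stimulated control libraries, Slc9a9 and Slc12a9 lower, and Slc6a12 and Slc36a2 differ most in unstimulated cells.

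Whether the response itself differed was tested as the stimulation difference in diabetic cells minus that in control cells. It was higher in 35 members and lower in 21, against 19.6% and 12.4% of all tested genes (32% in either direction). This split moved with scaling. The counts were 43 and 13 under total reads (3208 and 1018 of all tested genes), 30 and 26 after quantile normalization (1868 and 1555), and 32 and 25 under median-of-ratios scaling. Under the last, 1765 of all tested genes were higher and 2032 lower, beside 2297 and 1450 in the main fit. The lower count was 12 in the first block and 9 in the second, and the higher count was 17 in the second block. Over all tested genes these counts were 986, 679 and 963, in this order. The largest was that of Slc20a1, at 0.93 ± 0.11 (adjusted p = 1.0e-06), as it fell by 1.91 in diabetic and by 2.84 in control cells, with unstimulated means of 91.9 CPM in diabetic and 92.3 CPM in control cells. Slc30a1 followed at 0.71 ± 0.10 (adjusted p = 4.7e-06), Slc45a4 at 0.65 ± 0.12 and Slc7a6 at 0.63 ± 0.10. For these 4 the unstimulated phenotypes differed by -0.01, 0.16, -0.07 and -0.07, and none of those values passed the test.

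The most negative interactions were those of Slc6a4 at -0.86 ± 0.15 (adjusted p = 7.9e-05), Slc46a3 at -0.77 ± 0.12 (adjusted p = 3.0e-05), Slc36a2 at -0.68 ± 0.18 (adjusted p = 0.0046) and Slc39a2 at -0.59 ± 0.13 (adjusted p = 7.5e-04). Slc6a4 and Slc39a2 rose less in diabetic cells, and Slc46a3 fell more. The value for Slc36a2 depended on the added 1 CPM. With 0.25 CPM added it was -0.61 (adjusted p = 0.077) and on the deposited log2 values -0.23 (adjusted p = 0.71), and the ratio of stimulated to unstimulated means was 0.0972 in diabetic and 0.114 in control cells. In the second block alone the interactions of Slc36a2 and Slc39a2 did not pass (adjusted p = 0.14 for both). All 4 stood under 3 CPM on average in at least 1 group. For the copper pair the interaction was 0.43 ± 0.05 for Slc31a1 (adjusted p = 2.1e-06) and -0.21 ± 0.08 for Slc31a2 (adjusted p = 0.036), and the second was lost when any of 12 single libraries was left out (adjusted p up to 0.072). Slc39a14 (0.54 ± 0.08), Slc16a10 (0.54 ± 0.06), Slc7a1 (0.47 ± 0.15), Slc48a1 (0.35 ± 0.10), Slc43a2 (0.33 ± 0.07) and Slc3a2 (0.26 ± 0.06) passed on the positive side. Slc12a9 (-0.53 ± 0.08), Slc29a3 (-0.28 ± 0.09) and Slc15a4 (-0.18 ± 0.06) passed on the negative side.

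The 19 members below the minimum level stood under 1 CPM on average in every group, apart from Slc4a4. They included the glutamate carrier Slc1a2, the bicarbonate carriers Slc4a4, Slc4a5 and Slc4a8, the sodium-proton exchangers Slc9a2, Slc9a4 and Slc9b1, and the zinc importer Slc39a12. Slc4a4 averaged 1.11 CPM in stimulated diabetic and 0.289 CPM in stimulated control cells. No test was made on these genes.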

How the data were processed

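Poly(A) RNA libraries of 24 samples of cultured macrophages, made with a kit that keeps strand per the labels' protocols, were measured by RNA-seq. Other label fields name genomic DNA, and the values were treated as RNA. The authors deposited 1 table of normalised log2 values per gene and library, which the values show to be log2 CPM with 0.25 reads added before scaling. The submitters' processing notes name STAR 2.5.3a, R 3.3.3 and edgeR 3.16.5 and builds GRCm38 and mm10. The tool and strand setting of counting are not given in the sources used here. CPM was recovered by taking the floor off the powers of 2, and whole reads came out in 100% of values within 0.01 read.

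Members and lists were chosen with earlier results of these data known. Genes with 1 CPM in at least 6 libraries (11710 of 13568) were fitted with limma 3.58.1 in R 4.3.3 (trend, robust) on log2(CPM + 1) in a group-means model of all 24 libraries with 20 residual degrees of freedom. All 5 comparisons used two-sided moderated tests, adjusted by Benjamini-Hochberg over all genes, with a threshold of 0.05. Fold changes on this scale understate those of low genes. The steps were tested on simulated data. Plots were drawn with matplotlib 3.10.9 under Python 3.11.15, from tables made with pandas 2.3.3 and numpy 2.4.6.

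Genes were named by rule: the 6 largest passing differences in each direction per comparison (4 for the interaction), the 5 highest levels per kb and a panel of 20. Others are said to have been picked later. A gene that the rule names is not reported here. The design text pairs the stimulated and unstimulated cells of each mouse. Same-numbered libraries correlated in their deviations from group means with r = 0.12 on average (-0.08 to 0.40, 5 of 12 above 0.1). Libraries of a group differed by more than counting noise, so none was merged. Replicates are mice, per the design text. Alternatives were pseudocounts of 0.25 and 5, the deposited values, no filter, a filter at 5 CPM, 3 scalings, the replicate block, only the groups compared, each library left out, each column block alone and no trend. RefSeq promoters (GRCm38.p6) matched 127 of 168 members by symbol or gene ID.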

Additional observations from a re-analysis of the deposited data

Results flagged for a closer look

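In 14 of 164 groups of 6 libraries examined for named members (8.54%), the highest or lowest library stood apart by Dixon's criterion, which chance meets in about 1 in 20 groups. Control unstimulated replicate 3 accounted for 3 of them, with the highest Slc12a7 (131 CPM) and Slc15a4 (84.1 CPM) and the lowest Slc1a5 (43.6 CPM) of its group. Diabetic unstimulated replicate 5 also accounted for 3, with the highest Slc16a10 (155 CPM), Slc36a2 (7.02 CPM) and Slc3a2 (196 CPM). Control stimulated replicate 3 had the highest Slc12a9 (182 CPM) and Slc15a3 (3034 CPM). The others were the lowest Slc27a1 in diabetic unstimulated replicate 4 (342 CPM), the lowest Slc30a1 in diabetic stimulated replicate 1 (52.4 CPM), the lowest Slc39a2 in control stimulated replicate 5 (6.11 CPM), the lowest Slc46a1 in diabetic stimulated replicate 4 (1.17 CPM), the lowest Slc6a6 in diabetic stimulated replicate 5 (1986 CPM) and the highest Slc7a5 in control stimulated replicate 1 (8.54 CPM). Without diabetic unstimulated replicate 5 the difference of Slc36a2 between unstimulated phenotypes was 0.76, beside 0.90 with it.

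The stimulation difference itself differed between diabetic and control cells, by the interaction term in limma, for 19 named members. It was more positive in diabetic cells for Slc20a1 (0.93), Slc30a1 (0.71), Slc45a4 (0.65), Slc7a6 (0.63), Slc16a10 (0.54), Slc39a14 (0.54), Slc7a1 (0.47), Slc31a1 (0.43), Slc48a1 (0.35), Slc43a2 (0.33) and Slc3a2 (0.26), each value being a difference of log2 differences. It was more negative for Slc6a4 (-0.86), Slc46a3 (-0.77), Slc36a2 (-0.68), Slc39a2 (-0.59), Slc12a9 (-0.53), Slc29a3 (-0.28), Slc31a2 (-0.21) and Slc15a4 (-0.18). Among the 19, 8 were named for having the largest interactions that passed, so the count of 19 is partly set by that choice. The interaction passed in 37.6% of all tested members, beside 32% of all tested genes.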

How the results depend on the processing

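Both scaling between libraries and the column blocks moved counts. Under total reads 23 members rose with the stimulus in diabetic and 22 in control cells, 21 were lower in stimulated diabetic than control cells, and 13 interactions were negative. Over all tested genes the same counts were 2371, 2300, 1528 and 1018, in this order. In the second column block alone 9 members were higher and 4 lower in unstimulated diabetic than control cells, 34 were higher in stimulated diabetic cells, and 17 interactions were positive and 9 negative, and in the first block 12 were negative. Over all tested genes these counts were 399, 462, 2474, 963, 679 and 986, in the same order. The fits of single blocks use 12 libraries. Single values changed sign under scaling. Slc30a1 in control cells was at -0.40 under total reads. Slc6a6 was at -0.51 (total reads) and -1.02 (quantile normalization) in diabetic and at -0.63 and -1.10 in control cells. Slc15a3 in stimulated diabetic against control cells was at 0.022, and Slc7a5 with the stimulus in diabetic cells at 0.058, both under quantile normalization. The cause was not tested.

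Leaving out each library in turn gave 38 to 40 higher and 94 to 96 lower members with the stimulus in diabetic and 40 to 44 and 95 to 96 in control cells. It gave 18 to 23 and 14 to 21 for unstimulated and 47 to 55 and 27 to 34 for stimulated diabetic against control cells, and 33 to 38 and 15 to 22 for the interaction. With the replicate block the pairs were 39 and 95, 44 and 96, 21 and 20, 52 and 35, and 37 and 25 in the same order. The block was the mouse for the stimulus and the interaction. For diabetic against control cells it was only the replicate number that different mice share, so those fits do not pair mice. Over all alternatives the 149 named differences gave 5357 values on the same side of the threshold in the same direction, 43 that newly passed, 70 that no longer did and 7 that reversed. Depth limits members near 3 reads, such as Slc6a4 in unstimulated cells.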
